A study of Rattus norvegicus with 4 samples.

Results

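The 10 ERK feedback and output genes described here are Spry1, Spry2, Spry4, Spred1, Spred2, Dusp4, Dusp5, Dusp6, Etv4 and Etv5. They were chosen by symbol, and 10 of 10 were found among the 30708 genes listed for each library. Their levels were read from poly(A) RNA-Seq of S16 cells, an immortalized rat Schwann cell line, without any genetic modification or treatment in the groups compared. There were 2 cell populations, 1 at passage 9, from which the rSOX-4 deletion clones of the study were made, and 1 at passage 39. Each population was grown in serum-containing medium, harvested from a confluent flask and sequenced as technical replicates 1 and 2, so that there were 4 libraries, with totals of 34246093 to 41382234 reads each as recovered from the deposited values. The study's methods give a lower depth per cell line, which these files do not account for, and if fewer reads were independent, the counting intervals below are too narrow. With a single population per passage, no comparison below carries a test, and every difference is given as a description with its counting error.

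ERK is the last kinase of the Ras, Raf and MEK cascade, which carries signals of growth factor receptors to the nucleus. In Schwann cells this cascade acts downstream of neuregulin and ErbB receptors and is known for its part in proliferation, in myelination and in the return to an immature state after nerve injury. The transcripts studied here are widely used as a readout of the cascade, because active ERK raises their transcription. Sprouty and Spred proteins hold back signalling between the receptor and Raf, DUSP phosphatases remove the activating phosphates of ERK, and Etv4 and Etv5 are ETS transcription factors of the PEA3 group.

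The labels call the cells myelinating Schwann cells. All 7 Schwann cell markers examined had a mean of at least 1 RPKM (reads scaled by gene length and by the total of the library), among them the transcription factor gene Sox10 at 171 to 183 RPKM and the myelin protein gene Pmp22 at 1216 to 1293 RPKM over the 4 libraries. The same held for 0 of 4 neuronal, 0 of 3 endothelial, 1 of 4 fibroblast (Pdgfra), 1 of 4 melanocyte (Pmel) and 1 of 4 macrophage (Cd68) markers. Syt1, Tyr, Ptprc, Cdh5 and Kdr were listed at 0 in each library. The libraries did not group by passage. For S100b, a calcium-binding protein of Schwann cells, the first technical replicates had 85.7 and 86.6 RPKM and the second 31.8 and 32.8 RPKM at passages 9 and 39. This gene was chosen for its values, and the study describes its technical replicates as pooled and run over sequencing lanes. The results are therefore given by passage and by technical replicate number, as labelled. Whether the labels of passage and replicate were crossed cannot be told from these files, and if they were, what is given below as a passage difference and as a technical replicate difference would change places. In bulk RNA, a change in the number of cells that express a gene and a change in the RNA per cell cannot be told apart.

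Dusp6 was by far the most abundant of the 10 genes, at 67.9 ± 0.189 RPKM (SD, n = 2 populations), and stood above 91.2% of the 11025 genes averaging 1 RPKM or more. The SD here and below is that of 2 passage means, each averaging a first and a second technical replicate. It leaves out the spread between technical replicates, which was the larger 1: single libraries of Dusp6 ran from 64.6 to 71.5 RPKM. Dusp6 encodes a cytoplasmic phosphatase that prefers ERK. Dusp6 measured 70.4 then 65.2 RPKM in passage 9 and 71.5 then 64.6 RPKM in passage 39, the first technical replicate being named before the second here and in what follows. Dusp6 alone made up 62.9% to 64.9% of the summed RPKM of the 10 genes in each library. At the other end, Etv4 was at 0.537 ± 0.0136 RPKM and was the only 1 of the 10 genes with a mean under 1 RPKM.

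The next 5 genes lay within a narrow range. Spred1, an inhibitor of Ras and Raf signalling, was at 10.8 ± 0.305 RPKM. Dusp4, a nuclear phosphatase of ERK, was at 9.01 ± 0.224 RPKM. Their ranges over the 4 libraries overlapped, at 10.1 to 11.4 and 7.99 to 10.1 RPKM, although Spred1 was the higher in each library. Spred2 followed at 6.13 ± 0.0946 RPKM and Etv5 at 4.88 ± 0.0128 RPKM. Spry2 was at 3.53 ± 0.0402 RPKM. Between Dusp4 and Spred2, Spred2 and Etv5, and Etv5 and Spry2, the library ranges did not overlap.

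The 3 genes near 1 RPKM could not be ordered. Spry1 was at 1.34 ± 0.0768 RPKM, Spry4 at 1.32 ± 0.0268 RPKM and Dusp5, a nuclear phosphatase specific for ERK, at 1.14 ± 0.0281 RPKM. The library ranges of Spry1 and Spry4 overlapped, as did those of Spry4 and Dusp5. Spry1 was the first of the 3 in both first technical replicates and the last in both second ones, and Dusp5 was the reverse. The genes other than Spry1 and Dusp5 held the same place in all 4 libraries, 8 of 10 genes in all. The median level of the 9 genes above 1 RPKM was 4.88 RPKM, against 11.1 RPKM over the 11025 genes.

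**Figure D1:**
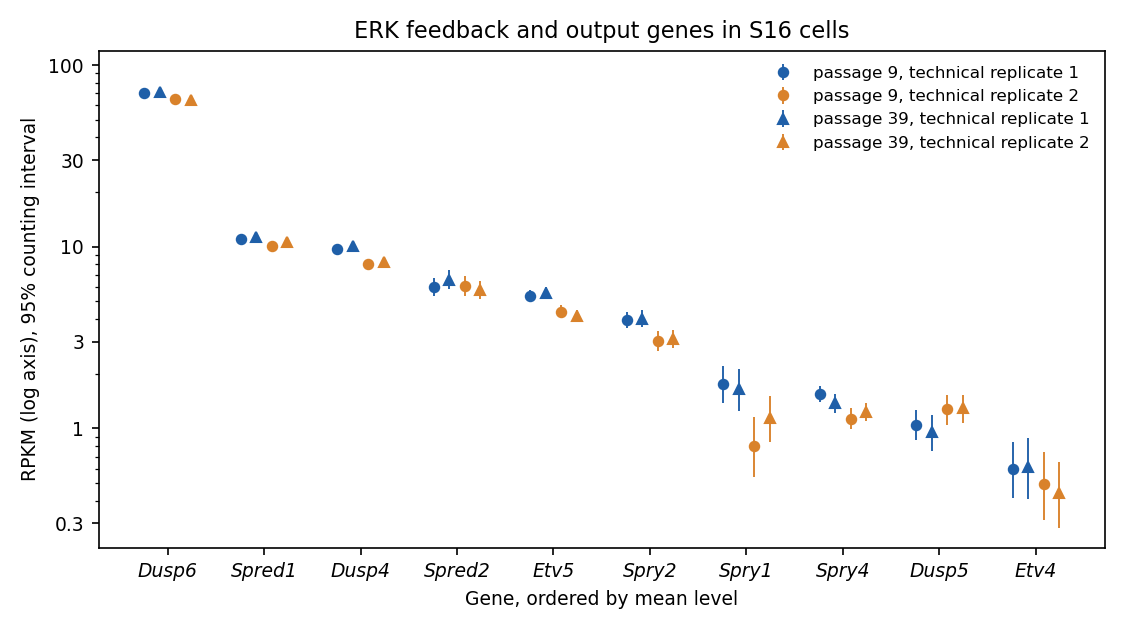
RPKM (log axis) of the 10 genes in each of the 4 libraries, ordered by mean level. Circles are passage 9 and triangles passage 39, blue is technical replicate 1 and orange technical replicate 2, and bars are exact 95% counting intervals. Dusp6 sits near 68 RPKM, the other 9 genes lie at 11.4 RPKM or below, and the blue symbols of most genes stand above the orange ones.

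The upstream sequence of 4 of these genes is shown because the results turn on them: Dusp6 has the highest level, Spry1 the largest difference between libraries, Etv5 is the leading PEA3 factor, and Dusp5 was the only 1 higher in the second technical replicates. Each run holds the 250 bases before the start site, 5′ to 3′ on the strand of the gene (plus for all 4), from the RefSeq table of the GRCr8 build, which is newer than the one used for the counts. The stretches are chr7:35979354-35979603 for Dusp6, chr2:122485097-122485346 for Spry1, chr11:92113013-92113262 for Etv5 and chr1:262543524-262543773 for Dusp5. Capitals mark CGGAA, which is 1 form of the ETS core GGAA, the CRE core TGACG, the CCAAT box and the CArG box, each on either strand.
Dusp6: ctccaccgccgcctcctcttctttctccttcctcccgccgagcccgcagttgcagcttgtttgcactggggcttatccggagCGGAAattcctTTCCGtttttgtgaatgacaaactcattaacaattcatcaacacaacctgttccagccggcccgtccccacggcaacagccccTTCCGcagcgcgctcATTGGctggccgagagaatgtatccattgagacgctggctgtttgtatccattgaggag
Spry1: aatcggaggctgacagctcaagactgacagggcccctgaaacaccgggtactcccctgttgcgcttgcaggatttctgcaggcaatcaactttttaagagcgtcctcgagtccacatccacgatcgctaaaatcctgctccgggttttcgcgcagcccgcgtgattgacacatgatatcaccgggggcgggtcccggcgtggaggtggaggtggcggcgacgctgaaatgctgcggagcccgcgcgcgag
Etv5: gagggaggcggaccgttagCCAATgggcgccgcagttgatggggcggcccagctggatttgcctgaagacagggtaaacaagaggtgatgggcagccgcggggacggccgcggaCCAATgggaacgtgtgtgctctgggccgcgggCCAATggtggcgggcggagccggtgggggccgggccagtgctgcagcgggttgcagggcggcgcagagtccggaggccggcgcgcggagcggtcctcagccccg
Dusp5: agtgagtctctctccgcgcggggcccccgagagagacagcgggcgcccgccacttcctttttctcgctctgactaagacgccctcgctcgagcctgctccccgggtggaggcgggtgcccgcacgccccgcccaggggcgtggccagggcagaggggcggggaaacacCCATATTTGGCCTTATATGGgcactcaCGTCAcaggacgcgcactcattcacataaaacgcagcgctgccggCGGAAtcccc

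The table held an upstream sequence for 8 of the 10 genes, 9 sequences in all since Spry2 has 2 start sites, and for neither Dusp4 nor Etv4. The ETS form CGGAA was present in 6 of the 8 genes, namely Dusp5, Dusp6, Spred1, Spred2, Spry2 and Spry4. By sequence this was 6 of 9, beside 26.1% of all 33469 upstream sequences of the same length. The 9 sequences held 54.8% to 74.8% GC, all sequences were not matched for GC, and enrichment was not tested. Dusp6 held 3 copies of CGGAA, and Spry1 and Etv5 held none. Other forms of GGAA were not searched and are unmarked, such as gggaa in the Etv5 run. Etv5 held 3 CCAAT boxes and Dusp6 held 1, against 34.0% of all sequences with at least 1. Only Dusp5 among the 8 genes held the CArG box, the site bound by serum response factor. It had 2 of them side by side, 82 to 63 bases before the start site, and 1.497% of all sequences held at least 1. The CRE core was in Dusp5, Spred2 and Spry2 and in 18.2% of all sequences, while the AP-1 site TGANTCA, the full CRE TGACGTCA and the TATA box TATAAA were in none of the 9. The CRE core is part of the full CRE, and no other searched motif overlapped another in these 4 genes. A match only shows that the letters are there, and whether the start site in the table is the one used in S16 cells was not tested.

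Compared with their relatives, the members were not always the leading genes of a family. In the Sprouty family Spry2 led, with 54.4% to 61.1% of the summed RPKM over the libraries. Spry1 made up 16.2% to 24.2% and Spry4 19.5% to 22.8%. Spry3 was listed at 0.00622 RPKM in technical replicate 1 of passage 9 and at 0 in the other 3 libraries. In the Spred family, Spred1 held 55.9% to 58.7%, Spred2 31.6% to 33.9% and Spred3, at 1.86 ± 0.0694 RPKM, 9.40% to 10.6%.

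Among the cytoplasmic phosphatases that prefer ERK, Dusp6 held 76.2% to 78.6% and Dusp7, at 19.7 ± 0.270 RPKM, nearly all the rest. Dusp9 was listed at 0.0113 RPKM in technical replicate 1 of passage 39 and at 0 elsewhere. The inducible nuclear phosphatases were led by a different gene in the 2 kinds of library. In the first technical replicates Dusp4 held 60.3% at passage 9 and 58.7% at passage 39, and Dusp1, an immediate early gene that also acts on JNK and p38, held 32.6% and 35.1%. In the second ones Dusp4 held 40.2% and 42.1%, and Dusp1 52.7% and 51.0%. Dusp5 stayed between 5.53% and 6.60%, and Dusp2 was at 0.102 ± 0.0165 RPKM.

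The phosphatases that act mainly on JNK and p38 were present as well, with Dusp10 at 14.2 ± 0.179 RPKM, Dusp16 at 7.28 ± 0.121 RPKM and Dusp8 at 7.25 ± 0.142 RPKM (SD, n = 2 populations for each). Of the PEA3 factors, Etv5 made up 89.7% to 90.5% of the summed RPKM and Etv4 9.50% to 10.1%, so that their observed ratio hardly moved between libraries. Etv4 rested on 23 to 33 reads per library, too few to show that the ratio was stable. Etv1, the remaining PEA3 factor, was listed at 0.0193 RPKM (passage 9) and 0.0272 RPKM (passage 39) in the first technical replicates and at 0 in the second.

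**Figure D2:**
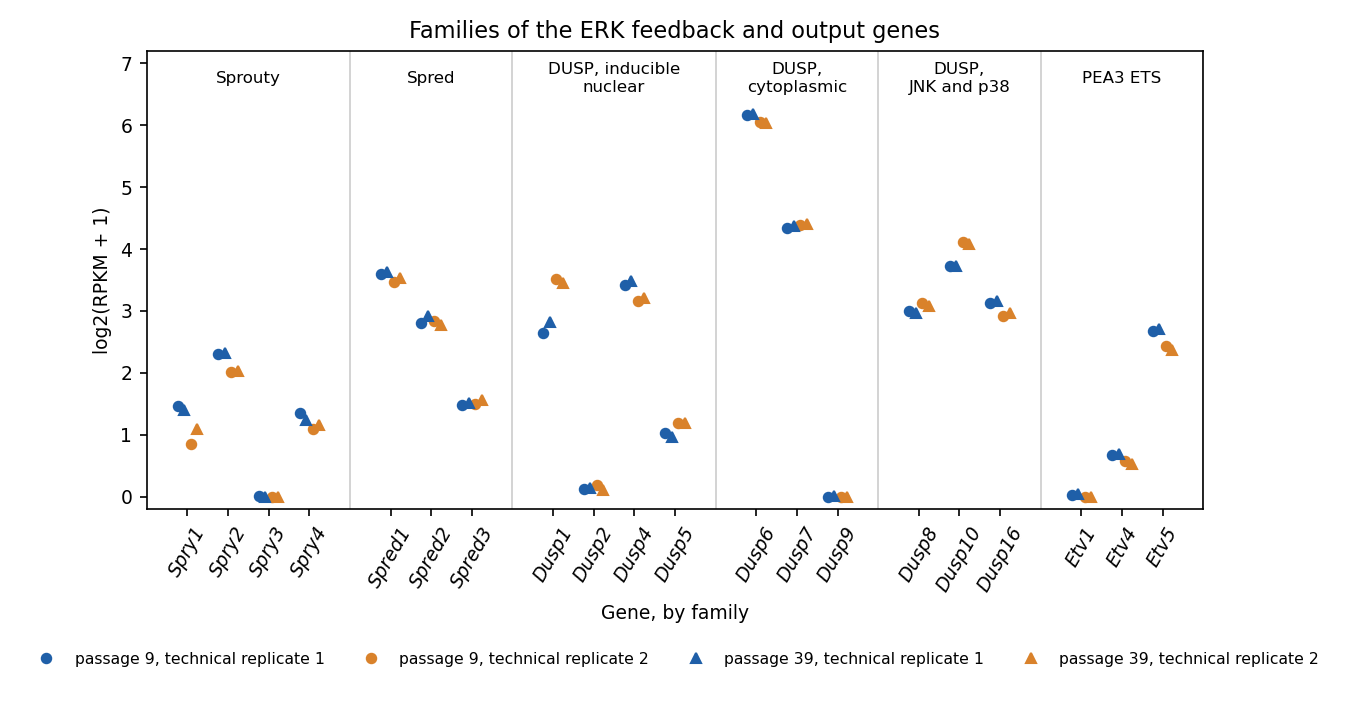
Levels on the log2(RPKM + 1) scale of the 10 genes and their relatives, grouped by family, with 1 symbol per library (circles passage 9, triangles passage 39, blue technical replicate 1, orange technical replicate 2). Dusp6, Spry2, Spred1 and Etv5 are the highest of their groups, Dusp1 and Dusp4 change places between blue and orange symbols, and Spry3, Dusp9 and Etv1 lie at or near 0.

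Between the libraries labelled passage 9 and passage 39, none of the 10 genes stood apart. The differences in log2(RPKM + 1), passage 39 minus passage 9, ran from -0.027 for Dusp5 to 0.067 for Spry1, with a median of 0.012, beside a median of -0.0021 over the 11025 genes. In RPKM, passage 39 over passage 9 was 1.08 for Spry1, 1.04 for Spred1, 1.04 for Dusp4 and 1.00 for Dusp6. On the log2 scale none of the 10 genes was at least 2-fold apart, and 0.00907% of the 11025 genes were. None had both libraries of passage 39 above, or both below, those of passage 9, which held for 3.1% and 3.11% of the 11025 genes. With the same technical replicate number compared, the 95% counting interval of the ratio included 1 for 10 of 10 genes in the first and for 10 of 10 in the second technical replicates. Of 11023 genes averaging 1 RPKM or more with recovered reads, 0.445% had intervals beyond 1 in the same direction for both numbers. This held for 0 of the 10 genes. The share of all genes whose interval included 1 within a single number was not counted.

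The intervals show what these reads could resolve. For Dusp6, with 6308 to 8024 reads per library, the ratio was 1.02 (95% interval 0.984 to 1.05) in the first and 0.991 (0.958 to 1.02) in the second technical replicates. For Spred1 it was 1.03 (0.970 to 1.09) and 1.06 (0.996 to 1.12). For Spry1, which rested on 29 to 75 reads, it was 0.934 (0.652 to 1.33) and 1.41 (0.874 to 2.33), so that a difference of that size was not detectable at this depth. Etv4, on 23 to 33 reads, had intervals of 0.597 to 1.75 and 0.482 to 1.65.

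The libraries labelled as technical replicates were further apart than the passages, in log2(RPKM + 1), for 10 of 10 genes. In the pathway lists described below, this held for 12 of 17 other feedback genes, 17 of 20 cascade genes and 15 of 15 other outputs. It was thus not particular to the 10 genes, and the share over all genes was not counted. For 8 of the 10 genes both second technical replicates lay below both first ones, for Dusp5 they lay above, and for Spred2 they overlapped. Of the 9 genes averaging 1 RPKM or more, 7 were lower in this sense, 1 was higher and 1 overlapped. Across the 11025 genes the balance was the other way, with 30.5% lower and 57.2% higher in both second technical replicates. The median difference in log2(RPKM + 1), second minus first technical replicates, was -0.15 for the 10 genes and 0.10 for the 11025 genes. None of the 10 genes reached 2-fold on this scale, where 1.09% of all genes did.

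The Sprouty genes were all lower in the second technical replicates. Spry1 was at 1.76 and 0.804 RPKM at passage 9 (75 and 29 reads) and at 1.65 and 1.14 RPKM at passage 39 (58 and 48 reads). Its ratio of the second to the first was 0.456 (95% interval 0.286 to 0.709) at passage 9 and 0.690 (0.461 to 1.03) at passage 39. This was the largest difference of the 10 genes, -0.46 on the log2(RPKM + 1) scale, and 5.51% of the 11025 genes had a lower one. Spry2 was at 3.97 then 3.04 RPKM in passage 9 and 4.01 then 3.11 RPKM in passage 39. Its ratios of 0.767 (0.653 to 0.898) and 0.774 (0.661 to 0.906) were close to each other. Spry4 was at 1.55 then 1.13 RPKM in passage 9 and 1.37 then 1.23 RPKM in passage 39, and the interval of its ratio left out 1 at passage 9 (0.615 to 0.868) but not at passage 39 (0.756 to 1.07).

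The Spred genes showed smaller differences. Spred1 was at 11.1 then 10.1 RPKM in passage 9 and 11.4 then 10.6 RPKM in passage 39, with ratios of 0.907 (0.856 to 0.962) and 0.933 (0.881 to 0.989). Spred2 was at 6.01 then 6.11 RPKM in passage 9 and 6.58 then 5.81 RPKM in passage 39. The intervals of its ratio, 0.858 to 1.21 and 0.745 to 1.05, both included 1, so no difference was detectable for Spred2.

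The phosphatases did not move in 1 direction. Dusp6 was lower in the second technical replicates, with ratios of 0.927 (0.897 to 0.958) at passage 9 and 0.903 (0.874 to 0.934) at passage 39. Dusp4 was at 9.71 then 7.99 RPKM in passage 9 and 10.1 then 8.21 RPKM in passage 39. Its ratios were 0.823 (0.769 to 0.881) and 0.811 (0.758 to 0.867). Dusp5 was higher in the second technical replicates, at 1.05 then 1.27 RPKM in passage 9 and 0.954 then 1.29 RPKM in passage 39. Its interval included 1 at passage 9 (0.919 to 1.60) and lay just above 1 at passage 39 (1.01 to 1.81). Dusp1, which is not 1 of the 10 genes, was at 5.24 then 10.5 RPKM in passage 9 and 6.06 then 9.94 RPKM in passage 39. With Dusp10, Dusp7 and Dusp8 it was among the relatives with both second technical replicates above both first ones, while Dusp16 was lower. Across the 11025 genes, 57.2% were higher and 30.5% lower in this sense. For Dusp7 and Dusp8 the intervals of the ratio included 1 in both passages.

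Both PEA3 factors were lower in the second technical replicates. Etv5 was at 5.39 then 4.40 RPKM in passage 9 and 5.56 then 4.18 RPKM in passage 39, with ratios of 0.816 (0.736 to 0.905) and 0.752 (0.677 to 0.834). Etv4 was at 0.600 then 0.493 RPKM in passage 9 and 0.615 then 0.439 RPKM in passage 39. Its intervals of 0.461 to 1.44 and 0.396 to 1.28 included 1, so the lower Etv4 values were within counting error.

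**Figure D3:**
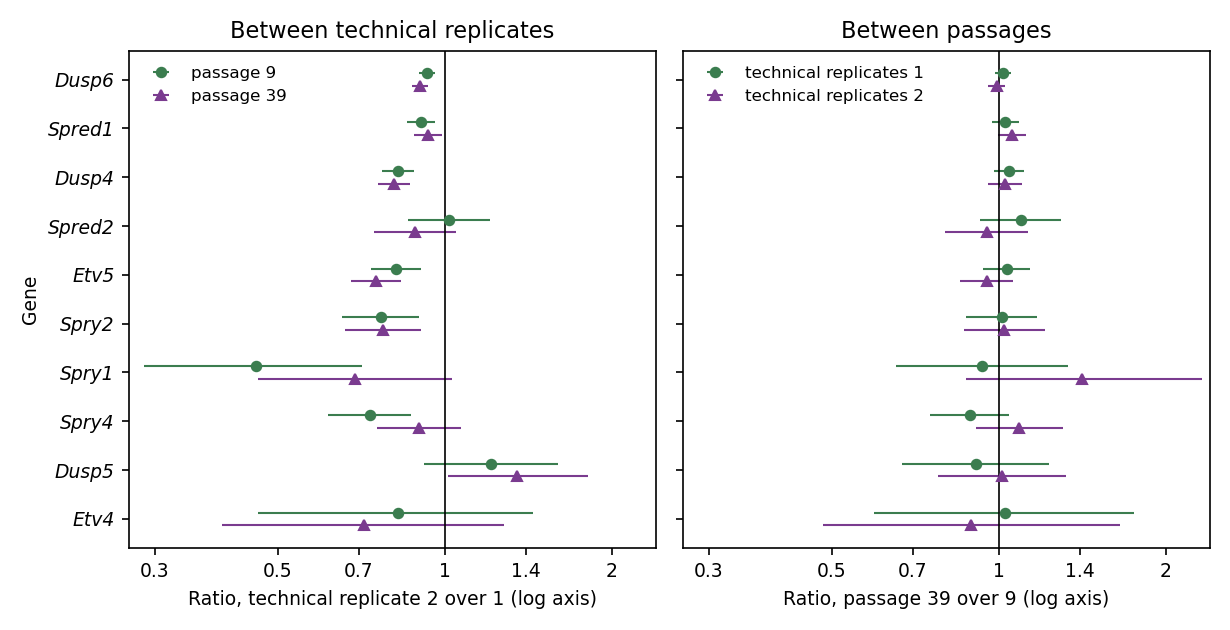
Ratios of RPKM for the 10 genes on log axes, with exact 95% counting intervals. The left panel gives technical replicate 2 over 1 at passage 9 (circles) and passage 39 (triangles), the right panel passage 39 over 9 for technical replicates 1 (circles) and 2 (triangles). On the left most genes lie below 1 and Dusp5 above it, and on the right every interval includes 1.

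By counting error, 5 of the 10 genes (Spry2, Spred1, Dusp4, Dusp6 and Etv5) had a ratio below 1 with an interval that left out 1 in both passages, and 0 had such a ratio above 1. Of 11023 genes averaging 1 RPKM or more with recovered reads, 21.6% were below in both passages and 41.6% above. Etv4, with a mean under 1 RPKM, was not among them. In RPKM averaged over the passages, the first technical replicates were above the second 1.76-fold for Spry1, 1.30-fold for Spry2 and for Etv4, 1.28-fold for Etv5, 1.23-fold for Spry4, 1.22-fold for Dusp4, and 1.09-fold for Spred1 and for Dusp6. The second technical replicates were 1.28-fold above the first for Dusp5. These intervals compare libraries, not passages or conditions.

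**Figure D4:**
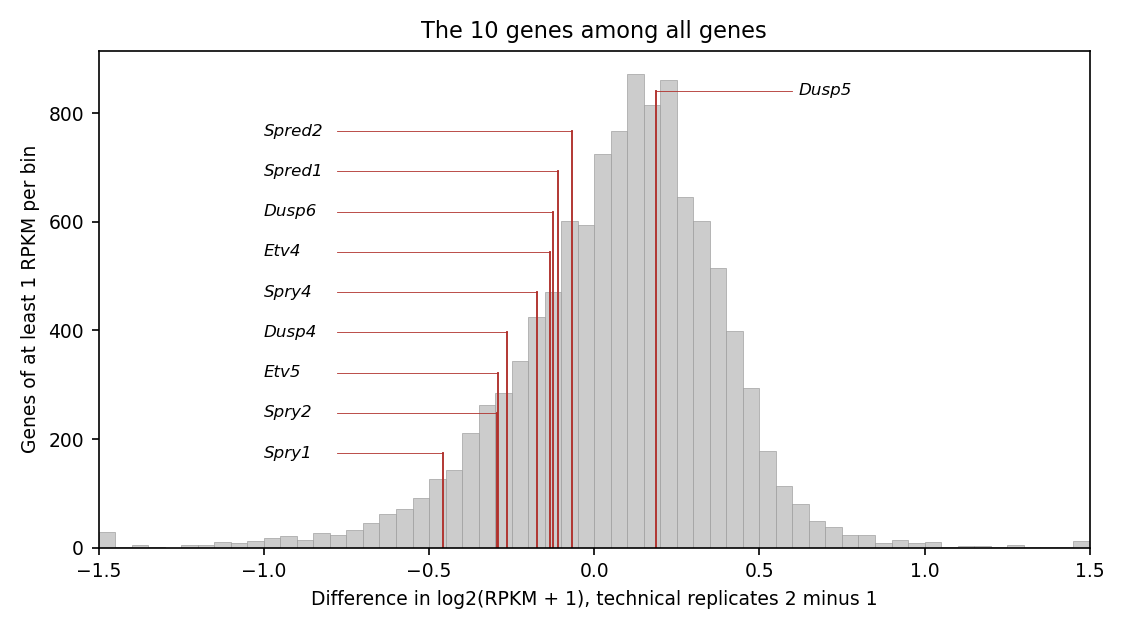
Differences in log2(RPKM + 1), second minus first technical replicates, for the 11025 genes averaging 1 RPKM or more (grey bars, where the outermost bars also hold the genes beyond the axis) and for the 10 genes (red lines). The grey bars centre above 0, at a median of 0.10, and 9 of the 10 red lines lie to the left of it.

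Other measures moved with the technical replicate number too. The summed RPKM of the 7 Schwann cell markers was 1920 to 1934 in the first and 1869 to 1890 in the second technical replicates, with 4 markers lower and 3 higher. The summed RPKM of the 4 fibroblast markers was 5.03 to 5.16 and 6.23 to 6.56. For melanocyte markers it was 8.85 to 9.19 and 8.27 to 8.67, for macrophage markers 1.59 to 1.62 and 1.48 to 1.54, and for neuronal and endothelial markers at most 0.0258. The part of these shifts in the differences of the 10 genes was not tested.

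Gene length moved with the contrast as well. Across 11023 genes averaging 1 RPKM or more, Spearman's rho between recovered length and the difference was -0.42. Longer genes were lower in the second technical replicates, and all genes share the same 4 libraries. A recovered length can be too short by a whole factor, as described below. The lengths of the 10 genes ran from 1028 bp for Spry1 to 5756 bp for Spred1, and the largest difference was that of the shortest gene. Relative to the median of genes of like length, 9 of the 10 genes were lower and Dusp5 was higher, at 0.051. Spry1 was at -0.68, Spry2 at -0.43, Etv4 at -0.37 and Spred2 at -0.30 on this scale. Etv5 was at -0.30, Dusp4 at -0.28, Dusp6 at -0.24, Spry4 at -0.12 and Spred1 at -0.059.

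**Figure D5:**
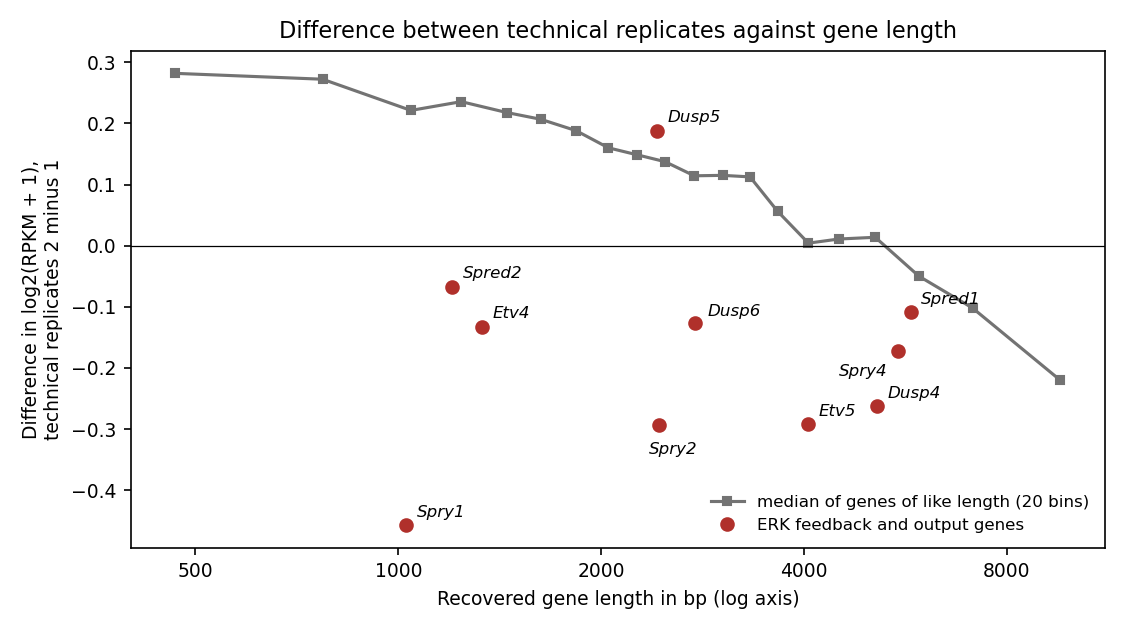
Difference in log2(RPKM + 1), second minus first technical replicates, against recovered gene length in bp (log axis). The grey line joins the medians of 20 bins of genes by length, and red points are the 10 genes. The grey line falls from 0.28 in the shortest to -0.22 in the longest genes, and every red point but Dusp5 lies below it.

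The rest of the pathway was described from 3 further lists. Of 20 genes of the ERK cascade from adaptors to ERK itself, 20 had a mean of at least 1 RPKM, with a median of 19.8 RPKM. In the second technical replicates 7 were lower, 10 higher and 3 overlapped, and their median difference was 0.032. Of 17 other feedback genes, 13 were at 1 RPKM or above, and 6 of these were lower, 5 higher and 2 overlapped. Of 15 other ERK outputs, 12 were at 1 RPKM or above, and 4 of these were lower, 7 higher and 1 overlapped. On the log2(RPKM + 1) scale none of the genes in the 3 lists was at least 2-fold apart in either contrast. In RPKM itself, Dusp14, a low gene named for its value, went from a mean of 0.201 RPKM in the first to 0.408 RPKM in the second technical replicates (2.03-fold), and Spry3, Dusp9 and Etv1 were listed at 0 there. Of all 15 other outputs, 5 were lower and 9 higher in the second technical replicates, where 8 of the 10 genes were lower and 1 higher. Across the 11025 genes averaging 1 RPKM or more, 30.5% were lower and 57.2% higher, and the other outputs were near these shares. The difference between the other outputs and the 10 genes was not tested.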

How the data were processed

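Poly(A) TruSeq libraries of 2 unmodified S16 populations were sequenced by the authors as 50 bp single ends. Per the labels and the study's methods, reads were aligned to rat rn5 with STAR, uniquely mapped reads were kept, and HTSeq counted them per gene without strand, so that overlapping and antisense genes cannot be told apart. The authors deposited RPKM values per gene symbol. The gene lengths behind them are not given in the sources used here, and the study's methods give a lower depth than the read totals recovered below.

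For each gene the mean of the population values, its SD (n = 2) and differences in log2(RPKM + 1) were calculated (pandas 2.3.3, scipy 1.17.1 and numpy 2.4.6 under Python 3.11.15). Figures were drawn with matplotlib 3.10.9. This scale understates the change of low genes. Passage differences used the mean of the 2 libraries of a passage, and technical replicate differences the mean of the 2 libraries with the same number. All genes averaging 1 RPKM or more served as background. No test was run, since technical replicates of 1 population per passage measure technical spread.

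Library totals, whole reads and gene lengths were recovered from the RPKM values, given that RPKM scales an integer read count by length and total. Of 18114 genes above 0 in 2 or more libraries, reads were recovered for 18113. The lowest integers that gave a whole length to within 0.01 bp were taken, so that a common factor can remain hidden and intervals are then too wide. The recovered length is then too short by the same factor. Among genes averaging 1 RPKM or more the shortest was 5 bp, below the read length of 50 bp. The intervals are exact at 95% (Clopper-Pearson for a level, conditional binomial for a ratio) and reflect counting error alone, because PCR copies were not marked by molecular identifiers.

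The 10 genes, the lists, the comparison by technical replicate number and the motifs were chosen with earlier results of these data or the sequences in view. Named are the 10 genes, their relatives in the Sprouty, Spred, DUSP and PEA3 families, and marker genes. Other pathway genes are given as counts. Of the marker list, 1 gene is not reported here. The alternatives were 2 scalings, a pseudocount of 0.1 RPKM, minimums of 0.1 and 5 RPKM and each library left out. The length correction and the scalings of the counts of non-overlapping genes were added after seeing the data.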

Additional observations from a re-analysis of the deposited data

Results flagged for a closer look

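Spred2 had differences between its technical replicates that ran in opposite directions in the 2 passages, 0.022 at passage 9 and -0.15 at passage 39 in log2(RPKM + 1), so that the second differed from the first by -0.18. The difference was not tested. Dusp2 did the same, with a difference of -0.11 between the passages, on 5 to 8 reads per library, and this was not tested either. Spry3 and Dusp9 each had 1 library far from the other 3, with a gap of 1 relative to the range of the 4, because each was above 0 in a single library. For values that vary continuously, about 1 in 20 genes would be picked out in this way by chance.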

How the results depend on the processing

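The number of the 10 genes at least 2-fold apart was 0 in both contrasts and stayed 0 with both scalings, with a pseudocount of 0.1 RPKM and with each library left out. Of the 10 genes, 9 averaged 1 RPKM or more, and 4 reached a minimum of 5 RPKM. After median-ratio scaling 9 were at 1 or more, and after rescaling to a sum of 1000000 per library 10 were. The RPKM of a library summed to 315847 to 351061, so this rescaling raised all values while the cut stayed at 1. The median passage difference, 0.012, was 0.018 after rescaling to a sum of 1000000 per library, 0.014 after median-ratio scaling and 0.014 with a pseudocount of 0.1 RPKM. With each library left out it ran from -0.082 to 0.11, its sign following which technical replicate was missing: 0.11 without replicate 1 and -0.071 without replicate 2 of passage 9, -0.082 without replicate 1 and 0.10 without replicate 2 of passage 39. Each of these values sets a single technical replicate number against a mean of both, so it carries the difference between technical replicates. The direction of the passage difference cannot be read from them. The median difference between technical replicates, -0.15, was -0.34 after rescaling, -0.24 after median-ratio scaling, -0.29 relative to genes of like length and again -0.29 when 0.1 RPKM was the pseudocount, and it ran from -0.18 to -0.14 with each library left out. Rescaling moved the median of all 11025 genes from 0.10 to -0.026 and median-ratio scaling to 0.0055. Rescaling to a sum of 1000000 also made the pseudocount of 1 smaller relative to the values. Its medians are therefore not directly comparable with the main ones. Under all of these scalings, pseudocounts and libraries left out, 9 of the 10 genes lay below the median of all genes and 1 above. The scalings multiply every gene of a library by the same factor, so they could hardly change this count. Both scalings gave 9 genes with both second technical replicates below both first ones, against 8, and 1 above. No paired analysis was possible as a test because each passage was a single population, and passages were compared within each technical replicate number by counting intervals alone. Counting error limits Spry1, Dusp5 and Etv4 most.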
